A study of Mus musculus with 16 samples.

Results

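The unfolded protein response and the integrated stress response were followed in mouse liver through 10 genes: Atf4, Ddit3, Trib3, Chac1, Asns, Xbp1, Hspa5, Pdia4, Herpud1 and Dnajb9. They were chosen by their symbols, and the probe with the highest mean over 16 arrays stood for each gene. All 10 were among the 31511 genes tested. Liver RNA came from 16 male mice aged 6 weeks, of 4 genotypes of CerS2 (ceramide synthase 2, which makes ceramides with very long acyl chains), with 4 mice and 4 arrays in each. WT carried the wild-type gene, H/A is the line whose condition is labelled HA, Del the line labelled delHox and Flox the line labelled delneo. The labels do not say what these alleles contain, which cells carry them or that any mouse was treated, and all mice had a background of 75% C57BL/6 and 25% SV129. Cers2 itself was not analysed here, so the genotype labels were not checked against it.

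Unfolded protein in the endoplasmic reticulum (ER) is sensed by IRE1, PERK and ATF6. IRE1 splices the mRNA of Xbp1, and XBP1 and ATF6 then raise chaperones and degradation factors of the ER, such as Hspa5, Pdia4, Dnajb9 and Herpud1. PERK phosphorylates the translation factor eIF2, as do other kinases that sense lack of amino acids, viral RNA or lack of haem. The resulting integrated stress response favours translation of Atf4 mRNA, and ATF4 raises Ddit3, Trib3, Chac1 and Asns. In liver these pathways serve the heavy load of secreted proteins. The arrays measured amounts of RNA, and neither Xbp1 splicing nor translation of Atf4 was analysed here.

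The 2 arms are known to act through different promoter elements. All 10 genes matched a RefSeq promoter of GRCm38.p6, a window from 250 bases before to 50 bases after the annotated first base, and letters were searched there on both strands among 32851 promoters. The ER stress element (ERSE), bound by ATF6 with a partner factor and made of CCAAT and CCACG with 9 bases between them, occurred in 0.119% of all promoters and in 1 of the 10, Hspa5, beginning 65 bases before the first base. Its shorter variant (ERSE-II), ATTGG and CCACG with 1 base between them, occurred in 0.0365% and in Herpud1 alone of the 10, 52 bases before. The C/EBP-ATF element TGATGNAA, through which ATF4 and its partners act, occurred in 3.97% of promoters and in 4 of the 10: in Asns (23 bases before), Chac1 (193 before), Herpud1 (112 before) and Trib3 (14 after). The 5-letter parts were common, with CCACG, which both ER stress elements contain, in 32.8% of promoters and 7 of the 10, and TGACG in 20.8% and 7 of the 10. The stretches of 250 bases before the first base are shown for the genes with an ER stress element or a C/EBP-ATF element, since the 2 arms are known to act through these elements. Each is written along its gene, and capitals mark the longer elements.
Hspa5, chr2:34771840-34772089, plus strand: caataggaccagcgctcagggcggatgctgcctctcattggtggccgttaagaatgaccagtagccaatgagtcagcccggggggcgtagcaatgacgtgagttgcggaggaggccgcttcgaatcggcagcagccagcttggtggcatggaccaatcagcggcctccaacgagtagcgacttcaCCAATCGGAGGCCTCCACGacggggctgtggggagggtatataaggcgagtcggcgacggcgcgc
Herpud1, chr8:94386179-94386428, plus strand: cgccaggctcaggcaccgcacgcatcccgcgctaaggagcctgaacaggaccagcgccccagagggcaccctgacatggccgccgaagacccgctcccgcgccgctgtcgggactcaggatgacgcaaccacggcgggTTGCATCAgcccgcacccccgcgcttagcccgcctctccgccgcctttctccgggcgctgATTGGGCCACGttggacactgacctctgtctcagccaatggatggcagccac
Asns, chr6:7693210-7693459, minus strand: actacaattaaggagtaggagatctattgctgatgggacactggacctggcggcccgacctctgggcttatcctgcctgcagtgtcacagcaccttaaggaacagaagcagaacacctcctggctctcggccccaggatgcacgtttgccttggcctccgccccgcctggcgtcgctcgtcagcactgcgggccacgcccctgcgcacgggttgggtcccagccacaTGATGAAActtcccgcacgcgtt
Chac1, chr2:119350992-119351241, plus strand: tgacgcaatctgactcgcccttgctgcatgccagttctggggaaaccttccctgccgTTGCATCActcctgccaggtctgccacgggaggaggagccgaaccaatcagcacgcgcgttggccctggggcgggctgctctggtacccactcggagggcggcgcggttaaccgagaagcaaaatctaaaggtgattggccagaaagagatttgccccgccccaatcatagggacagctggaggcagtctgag
Trib3, chr2:152344061-152344310, minus strand: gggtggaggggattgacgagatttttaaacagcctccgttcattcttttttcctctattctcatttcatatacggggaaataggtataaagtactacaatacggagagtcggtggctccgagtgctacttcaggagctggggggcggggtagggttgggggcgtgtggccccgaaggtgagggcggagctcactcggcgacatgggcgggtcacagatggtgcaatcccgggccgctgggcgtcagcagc
Hspa5 has its match near the end of the stretch, Herpud1 has both kinds, and Asns and Chac1 have the C/EBP-ATF letters only, on opposite strands. Trib3 has no capitals, since its match lies after the first base. A match of letters is a description of the promoter and was not measured as a bound site.

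All 10 genes passed the filter, which asked for a signal well above background on 4 or more arrays. Of them 9 were well above background on all 16, and Ddit3 on 10. Per array, 51.6% to 65.2% of all spots exceeded background clearly, and no spot was saturated. Arrays lay on 2 slides, with 3 H/A, 2 WT, 2 Flox and 1 Del array on slide 1. On the first principal component, which held 43.0% of the variance, the WT and Flox arrays lay between 10.9 and 65.2 and the H/A and Del arrays between -92.6 and -19.0, and WT replicate 2, at 10.9, lay nearest to the latter. Hepatocyte markers were well above background on every array (11 of 11 with a probe), with a log2 summed level of 18.24 to 18.39 over all arrays. That sum rests mostly on the brightest markers. Singly, Serpina1c fell against WT by 1.18 in H/A and 1.23 in Del, and Cps1 rose by 0.68 in H/A only. The other hepatocyte markers were not called there (10% and 13.2% of all genes were). In Del against Flox Serpina1c fell by 1.06 and Cps1 rose by 0.69 (34.7% of all genes called). Markers of Kupffer cells and macrophages, with 12 of 12 well above background everywhere, had a log2 summed level of 12.03 to 12.97 in WT, 12.25 to 12.83 in Flox, 13.18 to 14.22 in H/A and 13.32 to 13.48 in Del. Of secretory cell types rich in ER, 10 pancreatic acinar markers had 4 or 5 on 0 arrays of a genotype and a log2 summed level of 9.12 to 10.06, and B cell and plasma cell markers one of 8.61 to 9.18. In whole liver, a change in the number of cells of a type and a change in RNA per cell cannot be told apart.

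Among the 10 genes, Trib3 was higher in both H/A and Del livers, and Chac1 was lower in H/A. Against WT, Trib3 rose 2.43-fold in H/A and 2.20-fold in Del, while Chac1 fell by 0.54 on the log2 scale in H/A. In Del against Flox, Trib3 and Pdia4 rose and Chac1 fell. Atf4, Ddit3, Asns, Xbp1, Hspa5, Herpud1 and Dnajb9 were not called in any of the 5 comparisons. A gene was called at a limma p, adjusted over all 31511 genes, under 0.05, and the verbs "rose" and "fell" are kept for called genes. H/A against WT called 2 of the 10, where 10% of all genes were called (7.08% rose and 2.97% fell). Del against WT called 1 of the 10 against 13.2% of all genes (8.85% rose and 4.37% fell), and Flox against WT 0 of the 10 against 0.0222% (0.00317% rose and 0.019% fell). Del against Flox called 3 of the 10 against 34.7% (16.6% rose and 18.1% fell), so the share of the 10 lay near that of all genes. H/A against Del called 0 of the 10 against 0.0127% (0.00952% rose and 0.00317% fell). Groups did not overlap for 2 of the 10 in H/A against WT (16.7% of all genes), 2 in Del against WT (17.8%), 0 in Flox against WT (4.37%), 4 in Del against Flox (33.5%) and 1 in H/A against Del (3.68%). At an unadjusted limma p under 0.05, 1 of the 10 passed in Flox against WT (Xbp1) where 5.8% of all genes did, and 1 in H/A against Del (Atf4) where 7.85% did. In H/A against WT, Del against WT and Del against Flox 3, 4 and 4 of the 10 passed, where 32.8%, 33.1% and 49% of all genes did. H/A and Del were both compared with the same WT arrays, so their values are not independent.

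**Figure D1:**
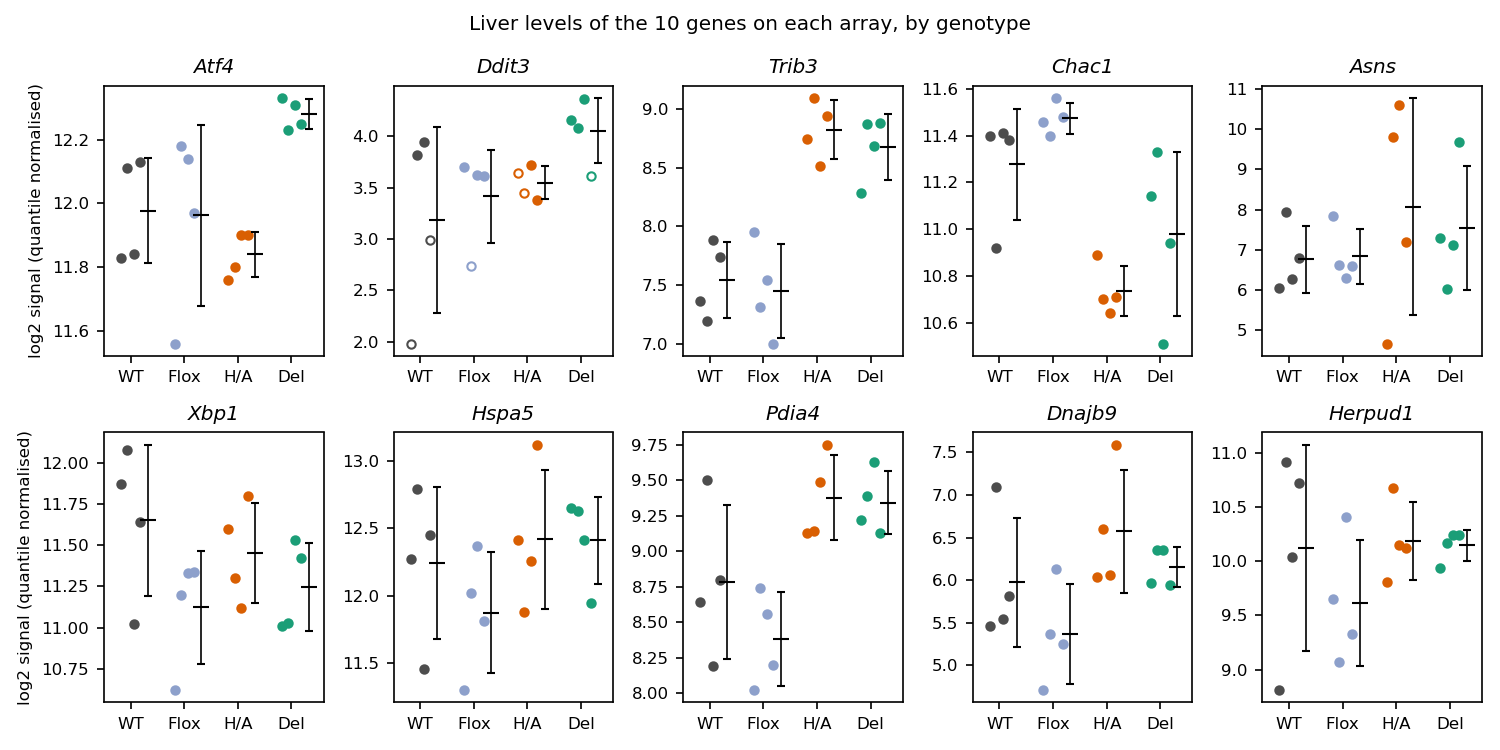
Log2 signal (vertical axis, a scale of its own for each gene) of the 10 genes on each of 16 arrays, with genotype on the horizontal axis. Filled points were well above background and open points were not, and the bar beside each group gives the mean ± SD of 4 mice. Trib3 in H/A (8.51 to 9.09) and Del (8.28 to 8.88) lies above WT (7.19 to 7.88) and Flox (7.00 to 7.95), while the H/A points of Asns range from 4.67 to 10.61.

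Atf4 encodes the transcription factor at the centre of the integrated stress response. Its log2 signal was 11.83, 12.11, 11.84 and 12.13 in WT, 11.56, 12.18, 12.14 and 11.97 in Flox, 11.76, 11.80, 11.90 and 11.90 in H/A, and 12.33, 12.23, 12.31 and 12.25 in Del. The Del arrays lay within 0.10 of each other and above every array of the other 3 genotypes. Del differed from WT by 0.30 (95% interval 0.02 to 0.59, adjusted p = 0.133) and from Flox by 0.32 (0.03 to 0.60, adjusted p = 0.0746), and both missed the threshold. Against Flox Atf4 passed with scaling by the 75th percentile (0.45, adjusted p = 0.0426), with normexp background correction (0.35, adjusted p = 0.0319) and without Flox replicate 2 (0.39, adjusted p = 0.0495). The largest difference of Atf4 was between H/A and Del, with H/A at 0.44 below Del on the log2 scale (-0.44, -0.73 to -0.16; unadjusted p = 0.0048, adjusted p = 0.503). H/A and Del did not overlap for 1 of the 10 genes, Atf4, where 3.68% of all genes did not overlap between them. H/A itself differed from WT by -0.14 (-0.43 to 0.15), and those groups overlapped. The signs of both differences turned without scaling between arrays, to 0.03 for H/A against Del and 0.44 for H/A against WT, where the median of all genes was at 0.40 and 0.37.

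Ddit3 encodes CHOP, a transcription factor induced by ATF4 and linked to cell death under lasting ER stress. Its probe lay close to background, with log2 signals of 1.98, 3.82, 3.94 and 2.99 in WT, 3.70, 2.74, 3.62 and 3.61 in Flox, 3.64, 3.45, 3.72 and 3.38 in H/A, and 4.16, 4.08, 4.36 and 3.61 in Del. It was well above background on 2 WT, 3 Flox, 2 H/A and 3 Del arrays. Del held the 3 highest of the 16 values, but its lowest array lay within the range of WT and of Flox. Del differed from WT by 0.87 (0.13 to 1.61, adjusted p = 0.1) and H/A by 0.37 (-0.37 to 1.10, adjusted p = 0.464). Without WT replicate 2 the difference in Del was 1.08 and was called (adjusted p = 0.0443). A second probe of Ddit3 was well above background on 0 of 16 arrays.

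Trib3 encodes a pseudokinase that is induced by ATF4 and CHOP and restrains AKT and ATF4 signalling. Its log2 signal was 7.36, 7.19, 7.88 and 7.74 in WT and 7.95, 7.31, 7.54 and 7.00 in Flox. It was 8.74, 9.09, 8.51 and 8.94 in H/A and 8.28, 8.87, 8.68 and 8.88 in Del. Every H/A and every Del array lay above every WT and Flox array, so H/A and Del did not overlap with WT or Flox. Trib3 rose by 1.28 on the log2 scale in H/A against WT (95% interval 0.82 to 1.74, adjusted p = 0.00217), with means of 8.82 ± 0.25 and 7.54 ± 0.32 (SD, n = 4). In Del it rose by 1.14 against WT (0.68 to 1.60, adjusted p = 0.00304) and by 1.23 against Flox (0.77 to 1.69, adjusted p = 0.00138). In order of level H/A stood first, then Del, WT and Flox, and neighbours in this order differed beyond their spread only between Del and WT. H/A and Del differed by 0.14 (-0.32 to 0.60, adjusted p = 0.919), and Flox and WT by -0.09 (-0.55 to 0.37, adjusted p = 0.939).

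Within slide 1 and slide 2, in that order, the difference of Trib3 was 1.51 and 1.13 in H/A against WT, 1.01 and 1.00 in Del against WT, and 0.65 and 1.54 in Del against Flox. With the slide as a block the 3 values were 1.33, 1.09 and 1.18, all called (adjusted p from 0.00206 to 0.00453). Slide 1 held 1 Del array and slide 2 held 1 H/A array. The names of the listed scanner files place the H/A group wholly on slide 1 and the Del group wholly on slide 2. For 6 of 16 arrays the values did not match the listed file, but matched the file at the slide and position of the label. A block of the listed slide, which is not the slide of the values on those 6 arrays, gave 0.82 in Del against WT (limma adjusted p = 0.107). The summed level of the macrophage markers given above was also higher in H/A and Del than in WT and Flox. Against WT 9 of these 12 genes were called in H/A (10% of all genes) and 7 in Del (13.2%), and all those called were higher. Among the genes not called, Csf1r differed from WT by -0.46 in H/A and -0.57 in Del, and C1qc by -0.41 and -0.37. In Del against Flox 7 of the 12 were called higher and 2 lower, Csf1r, which fell by 0.72, and C1qc, which fell by 0.52 (34.7% of all genes called). Their part in the rise of Trib3 was not tested.

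**Figure D2:**
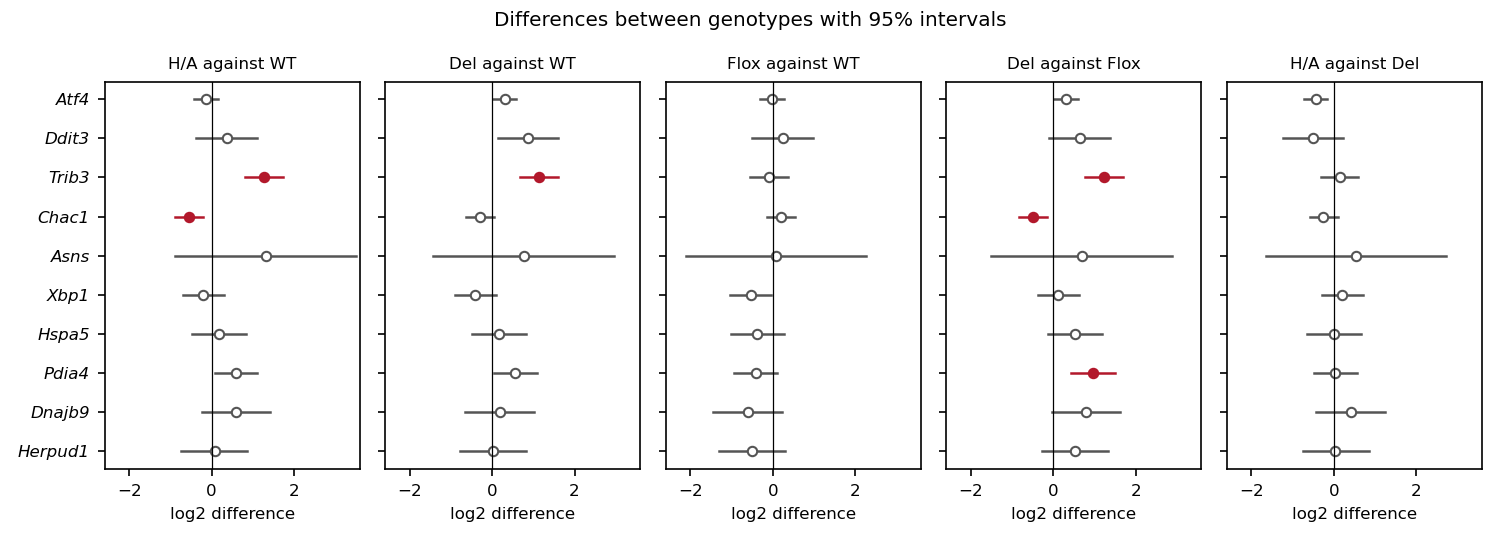
Difference of log2 signal (horizontal axis, first genotype minus second) of each of the 10 genes in the 5 comparisons, with 95% intervals of the limma fit over 16 arrays. Filled red points were called at an adjusted p under 0.05: Trib3 and Chac1 in H/A against WT, Trib3 in Del against WT, and Trib3, Pdia4 and Chac1 in Del against Flox.

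Chac1 encodes an enzyme that degrades glutathione and is induced by ATF4. Its log2 signal was 11.40, 10.92, 11.41 and 11.38 in WT, 11.46, 11.40, 11.56 and 11.48 in Flox, 10.89, 10.70, 10.64 and 10.71 in H/A, and 11.14, 11.33, 10.51 and 10.94 in Del. All H/A arrays lay below all WT and Flox arrays, all Del arrays lay below all Flox arrays, and Del overlapped with WT through WT replicate 2. Chac1 fell by 0.54 in H/A against WT (95% interval -0.89 to -0.20, adjusted p = 0.0462) and by 0.49 in Del against Flox (-0.84 to -0.15, adjusted p = 0.0313). In Del against WT it differed by -0.30 (-0.64 to 0.05, adjusted p = 0.209). So Chac1 and Trib3, both targets of ATF4, were called in opposite directions in H/A against WT and in Del against Flox. The Chac1 probe was bright, with a mean of 11.12 over 16 arrays, at percentile 96.3 of the genes tested. Whether it reads Chac1 alone was not tested.

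The Chac1 call in H/A was close to the threshold. It stayed when H/A replicate 1, WT replicate 2, Del replicate 2 or Del replicate 3 was left out, and was lost without any other array, and over all 16 the values ran from -0.66 to -0.50. A block of the slide also ended it (-0.53, adjusted p = 0.0624), as did leaving out the filter (adjusted p = 0.0654) or fitting H/A and WT alone (adjusted p = 0.0634). Without scaling between arrays the value was 0.05, where the median of all genes moved from -0.09 to 0.37. In Del against Flox the call was lost without Del replicate 3 (-0.34), Del replicate 4 (-0.48), or Flox replicates 1, 3 or 4 (-0.50, -0.47 and -0.49), without scaling (-0.29) and with these groups fitted alone (adjusted p = 0.0657). Within slide 1 and slide 2 the differences were -0.41 and -0.69 in H/A against WT and -0.29 and -0.59 in Del against Flox.

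Asns encodes asparagine synthetase, induced by ATF4 when amino acids are scarce. Its log2 signal was 6.05, 7.93, 6.28 and 6.80 in WT, 7.85, 6.62, 6.30 and 6.61 in Flox, 4.67, 9.81, 10.61 and 7.20 in H/A, and 7.30, 6.02, 7.13 and 9.68 in Del. H/A replicates 2 and 3 and Del replicate 4 stood above all other arrays, and H/A replicate 1 below all others. The pooled SD within genotypes was 1.64, larger than that of 99.9% of the genes tested. H/A differed from WT by 1.31 (95% interval -0.89 to 3.50, adjusted p = 0.377) and Del by 0.77 (-1.43 to 2.96, adjusted p = 0.605). A second Asns probe, for another transcript, read 5.53 and 6.09 on H/A replicates 2 and 3, 5.35 on Del replicate 4 and between 1.39 and 4.04 on the other 13 arrays. The same 3 arrays were therefore highest with both probes. The second probe was well above background on 7 arrays, H/A replicate 1 not among them, so its low values have no order. Trib3 did not share this spread: on H/A replicate 1 it stood at 8.74, above H/A replicate 3 at 8.51.

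**Figure D3:**
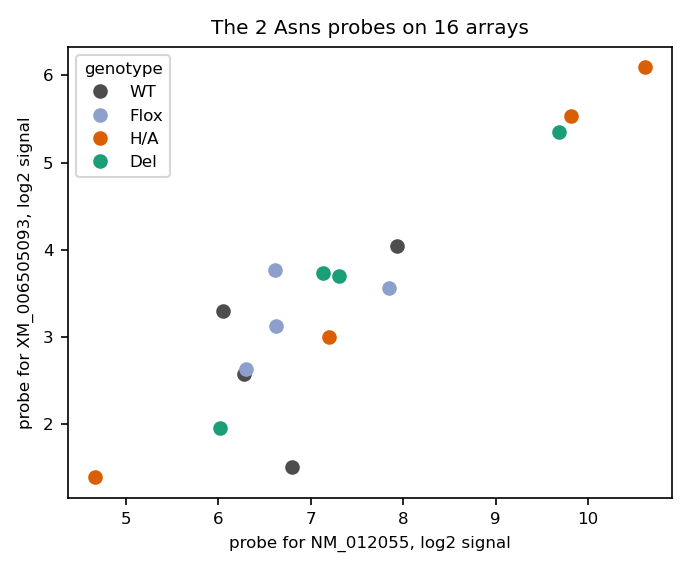
Log2 signal of the 2 Asns probes on each of 16 arrays, with the probe used here on the horizontal axis and the second probe on the vertical axis, coloured by genotype. H/A replicates 2 and 3 (9.81 and 10.61 on the horizontal axis) and Del replicate 4 (9.68) stand at the upper right and H/A replicate 1 (4.67) at the lower left.

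Xbp1 encodes the transcription factor whose mRNA IRE1 splices, and which form its probe reads was not examined. The log2 signal was 11.87, 12.08, 11.02 and 11.64 in WT, 10.62, 11.20, 11.33 and 11.34 in Flox, 11.60, 11.30, 11.12 and 11.80 in H/A, and 11.01, 11.03, 11.53 and 11.42 in Del. The 4 groups overlapped one another. Flox differed from WT by -0.53 (95% interval -1.03 to -0.03, unadjusted p = 0.0386, adjusted p = 0.802), Del by -0.41 (-0.90 to 0.09, adjusted p = 0.229) and H/A by -0.20 (-0.70 to 0.30, adjusted p = 0.565). The H/A value turned to 0.37 without scaling between arrays, at the median of all genes.

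Hspa5 encodes BiP, the major chaperone of the ER and the classical readout of the unfolded protein response. On the log2 scale it stood at 12.27, 12.79, 11.46 and 12.45 in WT, 11.30, 12.02, 12.37 and 11.81 in Flox, 12.41, 11.88, 12.26 and 13.12 in H/A, and 12.65, 12.63, 12.41 and 11.95 in Del. The WT arrays alone spanned 1.32, more than the 0.55 between the highest and the lowest of the 4 genotype means. Against WT, H/A differed by 0.18 (95% interval -0.48 to 0.83, adjusted p = 0.704) and Del by 0.17 (-0.48 to 0.82, adjusted p = 0.709). The intervals thus reach a rise of 0.83 and of 0.82, so changes of that size are not excluded with 4 mice per group. Del differed from Flox by 0.54 (-0.12 to 1.19, adjusted p = 0.17).

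Pdia4 encodes a disulfide isomerase of the ER. It stood at 8.64, 9.50, 8.19 and 8.80 in WT, 8.02, 8.74, 8.56 and 8.20 in Flox, 9.13, 9.14, 9.49 and 9.75 in H/A, and 9.22, 9.39, 9.63 and 9.13 in Del on the log2 scale. All H/A and Del arrays lay above all Flox arrays and above 3 of the 4 WT arrays, and WT replicate 2, at 9.50, lay among them. Pdia4 rose by 0.97 in Del against Flox (95% interval 0.44 to 1.49, adjusted p = 0.0108), by 0.85 within slide 1 and 1.00 within slide 2, and the call held in every alternative and without any single array (0.85 to 1.13). Against WT it differed by 0.59 in H/A (0.07 to 1.11, adjusted p = 0.113) and 0.56 in Del (0.04 to 1.08, adjusted p = 0.129). Without WT replicate 2 both passed, at 0.83 (adjusted p = 0.0192) and 0.80 (adjusted p = 0.022). Flox differed from WT by -0.41 (-0.93 to 0.11, limma adjusted p = 0.802).

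Dnajb9 encodes ERdj4, a co-chaperone of BiP and a target of XBP1. On the log2 scale the signal was 5.46, 7.09, 5.55 and 5.81 in WT, 4.71, 5.37, 6.13 and 5.25 in Flox, 6.04, 6.60, 6.06 and 7.59 in H/A, and 5.97, 6.36, 6.36 and 5.94 in Del. All H/A and Del arrays lay above 3 of the 4 WT arrays, with WT replicate 2 above all but H/A replicate 4. H/A differed from WT by 0.59 (95% interval -0.24 to 1.43, adjusted p = 0.291), with -0.04 within slide 1 and 1.91 within slide 2, which held H/A replicate 4 alone of its group. Del differed from WT by 0.18 (-0.65 to 1.01, adjusted p = 0.758) and from Flox by 0.79 (-0.04 to 1.62, adjusted p = 0.118).

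Herpud1 encodes a membrane protein of ER-associated degradation. Its signal on the log2 scale was 8.81, 10.92, 10.04 and 10.72 in WT, 9.65, 9.07, 10.41 and 9.33 in Flox, 9.81, 10.68, 10.15 and 10.12 in H/A, and 9.94, 10.17, 10.24 and 10.24 in Del. The Del arrays spanned 0.31 and the WT arrays 2.11, and WT held both the lowest and the highest of the 16 values. H/A differed from WT by 0.07 (95% interval -0.74 to 0.87) and Del by 0.02 (-0.78 to 0.83), and the sign of the Del value turned with the slide as a block (-0.06).

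For each of the 5 ER genes the widest range within a genotype (1.06 to 2.11) exceeded the largest difference of genotype means (0.53 to 1.21). WT replicate 2 was the highest WT array for Hspa5, Pdia4, Dnajb9, Herpud1 and Xbp1, 5 of 5, and for 17 of 19 other ER chaperones and folding enzymes, against 29.1% of all genes tested. H/A replicate 4 was the highest of its group for 4 of the 5 (all but Herpud1) and for 17 of the 19, against 27.3% of all genes. At the other end, Flox replicate 1 was the lowest Flox array for 4 of the 5 and 15 of the 19 (27% of all genes), and WT replicate 3 the lowest WT array for 3 of the 5 and 14 of the 19 (22.4%). In Del, replicate 4 was the lowest for 3 of the 5 (Hspa5, Pdia4 and Dnajb9) and 11 of the 19 (17.2% of all genes), and replicate 3 the highest for 2 of the 5 and 9 of the 19 (31.1%). Genes that rise and fall together across mice share every array, so these counts describe single mice or arrays and carry no test. In Trib3 and Chac1, WT replicate 2 was instead the lowest WT array.

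**Figure D4:**
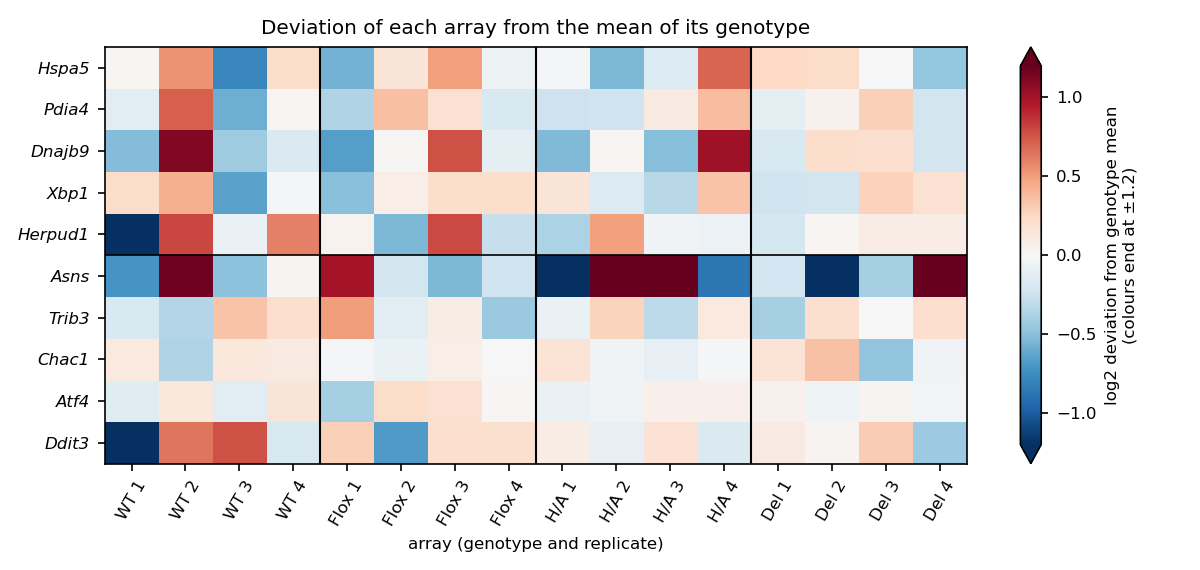
Deviation of each array (horizontal axis) from the mean of its genotype on the log2 scale, for the 10 genes (vertical axis), with red above and blue below the mean. The 5 ER genes in the upper block are red together on WT 2 and, apart from Herpud1, on H/A 4, and blue on Flox 1 for 4 of 5. Asns, whose deviations run past the end of the colour scale, follows another order.

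The genes whose log2 values, centred on their mean, lay closest to a member over the 16 arrays were named by the root mean square (RMS) difference. For Hspa5 they were Tmed3 (RMS difference 0.13, with an SD of Hspa5 over the arrays of 0.48), Manf (0.21), a secreted ER stress protein, and Alg12 (0.22), a mannosyltransferase of the ER. For Dnajb9 they were Gfpt1 (0.30, with an SD of 0.71), Gmppb (0.32) and Arfgap3 (0.33), and for Pdia4 Elavl1 (0.17, with an SD of 0.54), Morf4l2 (0.17) and Bag3 (0.18). Trib3 lay nearest to Cd36 (0.28, with an SD of 0.71), the fatty acid transporter, B4galt5 (0.29) and Tmem140 (0.31). Chac1 lay nearest to Mdk (0.06, with an SD of 0.35), 1700094D03Rik (0.07) and Mllt6 (0.07). Atf4 had Ipo13 and Syncrip (0.11 each, with an SD of 0.23), and Xbp1 had Nars2 (0.17, with an SD of 0.38), Prpf6 (0.19) and Otulin (0.20). The nearest genes of the other 3 members were far from them relative to their SD, at 0.33 for Ddit3 (Ccdc141, Rad54l2 and Kif16b), 0.95 for Asns (Ppbp, Defb1 and Gbp9) and 0.37 for Herpud1 (Parvg, Zfp869 and Urb1). No member was among the nearest 3 of another.

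The wider pathways were read from 11 lists with 140 genes besides the 10, of which 127 were tested. In H/A against WT 14 rose and 3 fell, 13.4% of those tested against 10% of all genes, with a median of 0.14 against -0.09. In Del against WT 16 rose and 2 fell, 14.2% against 13.2%, with a median of 0.10 against -0.11. In Del against Flox 41 rose and 5 fell, 36.2% against 34.7%, with a median of 0.30 against -0.14. With limma 0 of the 127 were called in Flox against WT, with a median of -0.20 against 0.02. In H/A against Del 0 were called, with a median of 0.03 against -0.01. All list genes have a symbol, as do 17689 of the 31511 genes tested. Of these 17689, 2119 were called in H/A against WT, 2728 in Del against WT and 6702 in Del against Flox. Those shares are higher than the shares of all genes given here, which include probes without a symbol.

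Against WT, 10% of all genes were called in H/A and 13.2% in Del, and the lists below, of 6 to 19 genes each, are given by their counts beside these shares. Of 19 ER chaperones and folding enzymes tested, 0 were called in H/A and 1 in Del, Dnajc10, an ER reductase that rose by 0.65 (adjusted p = 0.0196). Hsp90b1, the ER chaperone GRP94, differed from WT by 0.22 in H/A (95% interval -0.17 to 0.61) and 0.17 in Del (-0.22 to 0.56). Of 13 genes of ER-associated degradation, Derl2 fell by 0.48 in H/A (adjusted p = 0.0473) and 0 were called in Del. Of 8 sensors and adaptors, 0 were called in H/A, and Eif2ak3, which encodes PERK, rose in Del by 0.83 against WT (0.32 to 1.34, adjusted p = 0.0335) and by 1.12 against Flox (adjusted p = 0.00435). In H/A the difference of Eif2ak3 was 0.67 (0.16 to 1.18, adjusted p = 0.0787). Eif2ak3 stood at 6.06, 6.58, 5.90 and 6.16 in WT and at 6.76, 6.95, 7.26 and 7.05 in Del, without overlap. Of 16 genes of ER translocation and export, Srp54a rose in H/A (0.71) and Del (0.66), and Sar1a rose in H/A (0.56). Cytosolic heat shock genes had 0 of 11 called in either line against WT.

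The eIF2 and ATF4 arm was read from 4 further lists. Of 11 genes around eIF2, Eif2s1, which encodes eIF2 alpha, rose by 0.78 in H/A (adjusted p = 0.0103) and differed by 0.47 in Del (adjusted p = 0.0745). Eif2ak2, which encodes the kinase PKR, rose in both lines, by 0.55 and 0.90 (adjusted p = 0.0296 and 0.00115), while Eif2ak1, the haem-regulated kinase, fell by 0.45 in H/A (adjusted p = 0.036). Of 14 ATF4 targets of amino acid supply, 2 rose in each line and 0 fell (14.3% called in both, against 10% and 13.2% of all genes). Pck2, the mitochondrial phosphoenolpyruvate carboxykinase, stood at 5.31, 5.49, 5.17 and 5.59 in WT and at 6.82, 6.73, 7.32 and 6.97 in H/A, and rose by 1.57 in H/A (95% interval 1.16 to 1.98, adjusted p = 0.000299). In Del Pck2 rose by 1.14 (adjusted p = 0.00141). Slc3a2, the heavy chain of several amino acid transporters, rose by 0.82 and 1.04 (adjusted p = 0.0253 and 0.00505). Psat1, an enzyme of serine synthesis, differed by 0.91 in H/A (-0.15 to 1.97) and 0.98 in Del (-0.08 to 2.04) and was not called. Of 11 aminoacyl-tRNA synthetases, Gars1 rose in H/A (0.82) and Del (0.95), and Lars1 rose in Del (0.63).

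Of 10 other transcription factors, hormones and effectors of the integrated stress response, 3 rose and 1 fell in H/A and 4 rose and 1 fell in Del. Atf3, a stress-induced transcription factor, was well above background on 0 of 4 WT arrays and on all H/A and Del arrays. Its level in H/A was at least 20.0-fold higher (adjusted p = 3.62e-05) and in Del at least 25.4-fold higher (adjusted p = 1.16e-05) than in WT, counted from the lowest signal well above background on each WT array or the probe's own where that was higher. Nupr1, a small chromatin protein induced by ATF4, rose in both lines, by 1.19 and 1.64 (adjusted p = 0.0272 and 0.00311). Eif4ebp1, an inhibitor of translation, rose by 0.69 and 0.55 (adjusted p = 0.0141 and 0.0327), and Ddit4, an inhibitor of mTORC1, rose in Del by 1.52 (adjusted p = 0.0341). The gene that fell in both lines was Vegfa, by 0.89 in H/A and by 1.01 in Del. Fgf21, a hepatic hormone and target of ATF4, differed by -0.04 in H/A (95% interval -1.47 to 1.39) and by 0.45 in Del (-0.98 to 1.87). Sesn2, another target of ATF4, differed by -0.29 and -0.20 (adjusted p = 0.263 and 0.441). Of the 8 genes of the mitochondrial unfolded protein response, Lonp1, a mitochondrial protease, rose in both lines (0.45 and 0.42), Hspe1 rose in H/A (0.40), and Clpp fell by 0.33 in Del.

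Del against Flox, where 34.7% of all genes were called, called more genes of the ER lists than Del against WT. Flox itself had negative medians against WT in these lists, where the median of all genes was 0.02. They were -0.31 for chaperones and folding enzymes, -0.19 for ER-associated degradation and -0.21 for translocation and export. Of the 19 chaperones and folding enzymes 4 rose (21.1%, below the share of all genes), led by Dnajc10 (0.89) and Ero1a, the oxidase that renews disulfide isomerases (0.82). Of 13 genes of ER-associated degradation 4 rose (30.8%, also below that share), led by Edem1 (0.53) and Edem2 (0.54), which recognise misfolded glycoproteins. Mbtps2, the protease that releases ATF6, rose by 0.79. Of 16 genes of translocation and export 6 rose, among them Srp54a (1.15) and Sar1a (0.70), and 1 fell. Of 11 genes around eIF2, 2 rose, Eif2ak2 (0.92) and Eif2s1 (0.93), and 1 fell. Among 11 synthetase genes 6 rose, led by Gars1 (1.21) and Sars1 (0.50), and among 11 cytosolic heat shock genes 4 rose, led by Hsp90ab1 (0.71) and Hspb1 (1.51). Hspa9, the mitochondrial chaperone mortalin, rose by 0.53, while the mitochondrial protease gene Yme1l1 fell by 0.37. Pck2 (0.97), Slc3a2 (1.26), Nupr1 (2.13) and Bax (0.90) rose here as well. Of the 10 other factors, hormones and effectors of the integrated stress response 4 rose and 1 fell, and of 6 death genes linked to CHOP 3 rose and 1 fell. Atf3 and Tnfrsf10b were well above background on 0 of 4 Flox arrays. Counted from the same kind of floor on these arrays, Atf3 was at least 25.9-fold and Tnfrsf10b at least 6.84-fold higher in Del.

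Of 6 death genes linked to CHOP, Tnfrsf10b, which encodes a death receptor, and Bax rose in both lines, and Pmaip1 rose in Del. Tnfrsf10b was well above background on 1 of 4 WT and all H/A and Del arrays and its fitted differences from WT were 2.59 in H/A (adjusted p = 0.00192) and 3.14 in Del (adjusted p = 0.000288), against a WT level mostly not well above background. Bax rose by 0.73 and 0.95 (adjusted p = 0.0143 and 0.00197). Pmaip1 was well above background on 0 WT, 2 H/A and 2 Del arrays, so no fold is given. Its mean was 2.18 in WT and 3.72 in Del (adjusted p = 0.0415). The H/A mean was close to that of Del, at 3.68, but was not called against WT. These genes are also targets of p53. Eif2ak1, Vegfa, Ddit4, Pmaip1, Hsp90b1, Psat1, Fgf21 and Sesn2 were chosen after the values were seen.

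**Figure D5:**
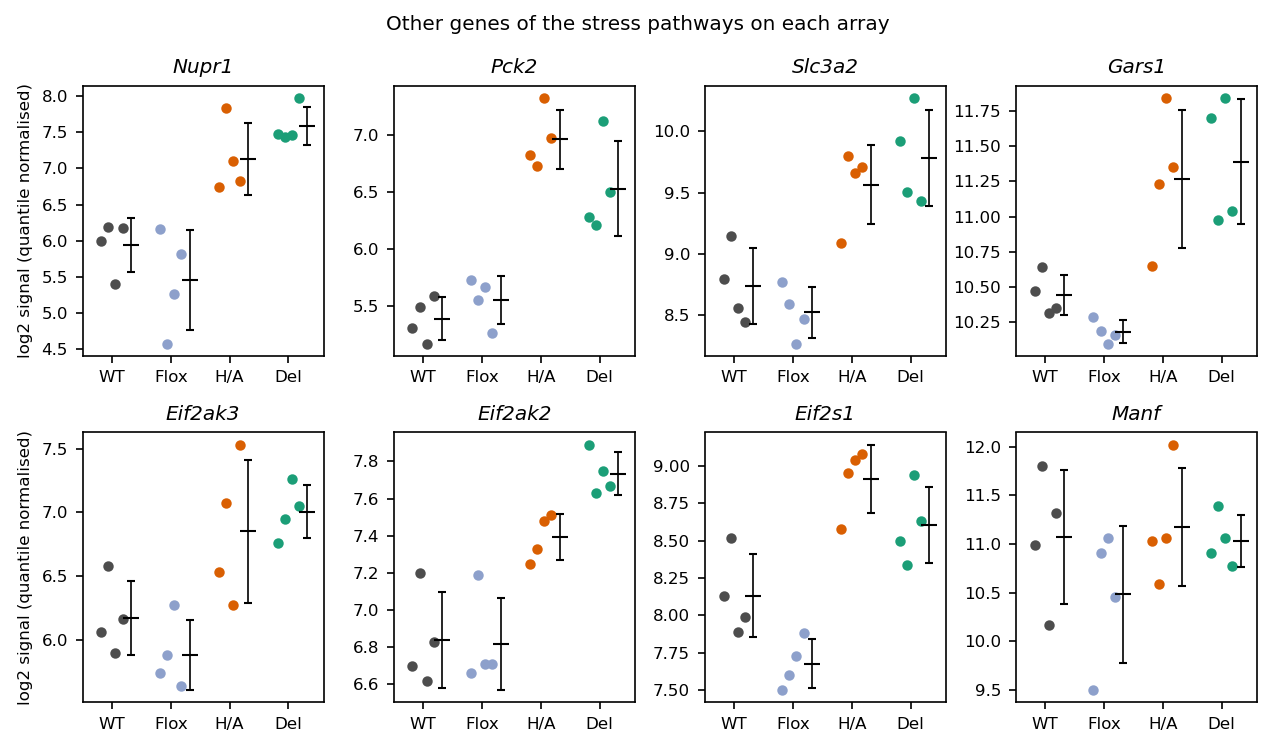
Log2 signal (vertical axis, a scale of its own for each gene) of 8 other genes of the pathways on each of 16 arrays, by genotype, with the mean ± SD of 4 mice beside each group. Pck2 in H/A (6.73 to 7.32) and Del (6.21 to 7.12) lies above WT (5.17 to 5.59), while Manf, close to Hspa5 in its values, spans 9.50 to 11.06 within Flox and overlaps across the 4 genotypes.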

How the data were processed

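Per the labels, liver RNA was primed with random and oligo-dT primers, labelled with Cy3 and hybridised to 16 1-colour arrays. Per the file headers, the authors' scanner files hold intensity values with background subtracted and spatial trends removed. Per the submitters' processing notes, Agilent Feature Extraction 11 and Partek were used. The authors deposited a table of log2 values, quantile normalised across arrays, since the sorted values differed by at most 0.0063 between columns. Every column had the median 4.36. Other columns of the deposited scanner files gave the flags for signals well above background.

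For 6 of 16 columns the listed scanner file did not match (r from -0.300 to 0.168 after removing each probe's mean), and the file at the position given by the title did (0.885 to 0.996). The value table was used for all values, and scanner files, paired by values, for flags and alternatives. Of 60037 probes, 36264 received a symbol through transcript identifiers of GRCm38.p6. The array was designed on another build, so no coordinates of probes or genes are given, and those of the promoter stretches are RefSeq's. Genes were tested where the probe was well above background on 4 or more arrays, with the brightest probe for each, which left 31511 genes. Of these 17689 had a symbol, and each probe without a symbol counted as a gene of its own.

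All 16 arrays were fitted in 1 model of 4 genotype means with limma 3.58.1 in R 4.3.3, tested on simulated data. Differences are on the log2 scale and p-values were Benjamini-Hochberg adjusted over all genes. The number of arrays limits the precision. The members and lists were chosen with earlier results of these data known. The text names the 10 members, the 2 called genes with the smallest p of each list and comparison, and the 3 nearest genes of each member, of which 1 is not reported here. Alternatives changed the scaling, background correction, filter, probe rule, moderation, array weights, slide block and arrays included.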

Additional observations from a re-analysis of the deposited data

Results flagged for a closer look

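Within each genotype, the array farthest from the other 3 was compared with the range of the group for each of the 10 genes, which gave 40 groups of 4 arrays. In 2 of them 1 array stood apart by more than Dixon's 95% critical value, and chance alone marks about 1 in 20 such groups. Ddit3 on Flox replicate 2 stood at 2.74, with 3.61 to 3.70 on the other Flox arrays, and was not well above background there. Chac1 on WT replicate 2 stood at 10.92, with 11.38 to 11.41 on the other WT arrays.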

How the results depend on the processing

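No paired analysis was possible because the labels give no replicate numbers. Trib3 kept its direction and its call in every alternative in H/A against WT (1.06 to 1.81) and Del against Flox (1.01 to 1.40). In Del against WT it lost the call in 1 alternative, a block of the slide in the listed file name. For 6 of 16 arrays that slide is not the one whose file matched the values. The label's slide, which matched on every array, kept the call as a block. The cause of the shifts below was not tested, except that fits of the 2 groups alone hold fewer arrays.

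In H/A against WT 2 of the 10 genes were called. The count was 1 with no filter on dim probes, the 2 groups alone or either slide as a block, 4 with array weights (Pdia4 and Dnajb9 added), and 1 to 3 without single arrays. The 3165 genes called in all became 9541 without scaling, 98.7% of them higher in H/A against 70.5% here, 1827 in the 2 groups alone, 13453 with array weights (42.2% higher), 2108 with the file name's slide as block, and 1451 to 8018 without single arrays. In Del against WT the count of 1 became 2 with array weights, 0 with the slide of the file name, and 1 to 3 without single arrays. The 4166 genes called there became 2242 without scaling (80.5% higher against 66.9%), 6377 with array weights, 1265 with the slide of the file name, and 2190 to 7177 without single arrays. With the label's slide as a block 55.5% of the calls were higher. In Flox against WT the 7 genes called became 4 without scaling, 2 in the 2 groups alone, 3 with the slide of the file name, and 3 to 7 without single arrays. In Del against Flox the count of 3 was 2 to 4 in all alternatives, and the 10950 became 4365 without scaling (78.1% higher against 47.8%) and 5101 to 12291 without single arrays, lowest without Del replicate 3. In H/A against Del the 4 became 34 without scaling, 9 with array weights, 2 with trend and robust moderation, 1 with no filter, 0 with the 75th percentile, normexp, a filter on all 16 arrays, the 2 groups alone or either slide as a block, and 0 to 8 without single arrays.

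Signs turned, in genes that were not called apart from Chac1, as follows. Without scaling H/A against WT gave 0.44 for Atf4, 0.37 for Xbp1 and 0.05 for Chac1, and H/A against Del gave 0.03 for Atf4 and 0.21 for Chac1. Herpud1 in Del against WT was -0.06 with the label's slide and -0.42 with the file name's slide, and Asns in Flox against WT was -0.01 with the latter. Array weights gave 0.04 for Atf4 in Flox against WT and -0.06 for Hspa5 in H/A against Del. Without single arrays, differences that crossed 0 ranged in H/A against WT from -0.04 to 0.62 for Ddit3, -0.08 to 0.36 for Hspa5 and -0.37 to 0.33 for Herpud1. In Del against WT they ranged from -0.09 to 0.35 for Hspa5 and -0.41 to 0.29 for Herpud1. In Flox against WT they ranged from -0.17 to 0.49 for Ddit3, -0.26 to 0.06 for Trib3, -0.09 to 0.12 for Atf4 and -0.25 to 0.47 for Asns. In Del against Flox they ranged from -0.04 to 0.20 for Xbp1 and -0.03 to 1.19 for Asns. In H/A against Del they ranged from -0.22 to 0.19 for Hspa5, -0.31 to 1.67 for Asns, -0.09 to 0.13 for Pdia4 and -0.12 to 0.17 for Herpud1.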
